A study of Rattus norvegicus with 12 samples.

Results

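Matricellular proteins are secreted into the extracellular matrix, where they act on cells and on growth factors and enzymes more than they bear load. The set examined here held 9 genes, Tnc, Thbs1, Thbs2, Thbs4, Postn, Sparc, Spp1, Fn1 and Ccn2, measured in bladder body tissue of 12 rats, all males of the Fischer 344 strain. Members were all non-control probes of the array whose RefSeq accession maps to these genes, whatever the signal. There were 9 such probes for 8 of the 9 genes, out of 15154 genes named on the array. Fn1 had 2 probes, the other 7 genes had 1 each, and no probe was matched to Thbs4, which was not analysed here. Of the 8 genes, 7 passed the filter on dim probes and were tested, and Thbs1 did not.

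Total RNA of each animal was labelled with Cy3 and hybridised to its own one-colour Agilent array. The young fed group was 6 months old and ate freely. The old fed group was 25 to 28 months old and ate freely as well. The old restricted group had the same age range and had been given food on 3 days a week since 6 weeks of age, which amounted to about 40% fewer calories than the old fed group took. Each group held 4 rats, all of the same strain and sex, and no young restricted group was analysed here. The piece of tissue contains urothelium, smooth muscle, connective tissue, vessels and nerve, so fewer cells of a type and less RNA per cell cannot be told apart in any value below.

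As background, most of these proteins are low in resting adult tissue and are induced during development, injury, inflammation or mechanical strain, mainly by fibroblasts and smooth muscle cells. They bind integrins, syndecans, CD36, CD44 and CD47 on the cell surface, and several of them bind collagen, steer its assembly or hold growth factors such as TGF-beta in the matrix. In the bladder, whose wall is stretched and emptied through life, matrix composition bears on compliance and on repair.

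All values are levels on a log2 scale: the log2 processed signal of a probe minus the 75th percentile of its array. A level of 0 is thus the signal that 75% of spots stay below, and levels of different probes cannot be set against each other. The 75th percentile signal was 3993 to 4892 over the 12 arrays, and 21659 to 24644 of 30367 probes were well above background. The lowest level counted as well above background, the floor, was -8.40 to -7.81 on old fed, -7.73 to -7.46 on restricted and -7.14 to -6.89 on young fed arrays. For dim probes, counts of arrays well above background thus depend on the array as well as on the level. Old fed rat 2 stood apart from the other 11 animals, with a score of 51.9 on the first principal component, where the other old fed rats had 7.27 to 13.7. Young and old fed arrays shared a slide and a scan but lay in different rows of it. Age and array row thus cannot be told apart. The restricted arrays were alone on a second slide read in a second scan, so restriction and slide cannot be told apart in any comparison with them. Defining markers of smooth muscle, urothelium and fibroblasts with a tested probe (7 genes each) were well above background on all 12 arrays, except the smooth muscle gene Tagln, which was so on 3 of 4 old fed arrays.

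The comparison of old with young fed rats asked how age moves these genes. None of the 7 tested members passed the test (0 of 7, limma with Benjamini-Hochberg adjustment over all 20425 features at 0.05), where 3.72% of all features did. At an unadjusted p under 0.05 there were 4 members, of which Spp1 was higher and Tnc, Sparc and Postn were lower in old rats, beside 24.6% of all features, 5032 of 20425. Of these, Spp1 was tested only because it was well above background in the old fed group, so it adds nothing to that count. The animals of both ages did not overlap for 1 member, Tnc, against 15.1% of all features. The members' median difference was -0.04, close to that of all features (-0.05).

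The comparison of restricted with fed old rats asked what lifelong restriction changes at the same age. Tnc and Thbs2 were higher and Spp1 was lower in restricted rats, 3 of 7 members, where 3.64% of all features were called in either direction. For the same 3 members the ranges of the animals lay apart, against 14.7% of all features. Spp1 entered the test only because it was well above background in the old fed group, so it had to differ between groups, and its call adds nothing to that count. The members' median difference was 0.06 and that of all features was 0.02.

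Set against young rats, restricted old rats had higher Thbs2 and no other member passed, 1 of 7, where 9.18% of all features did. Thbs2 was also the 1 member whose animals did not overlap, against 18.0% of all features. The median was -0.16 for the members and -0.01 for all features. The 3 comparisons share their groups pairwise, so a group that lies low or high moves 2 of them at once.

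**Figure D1:**
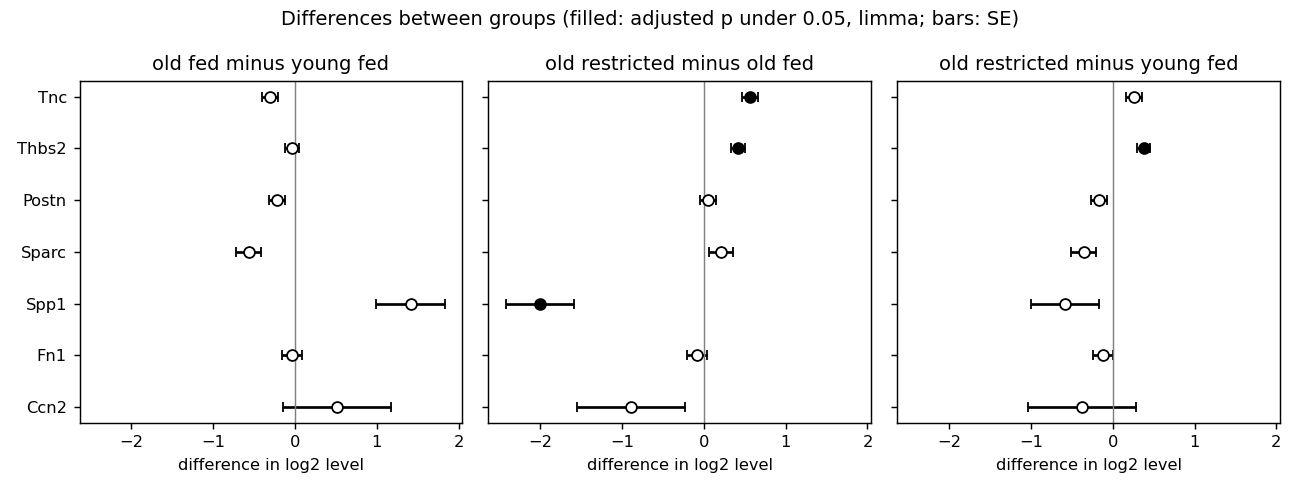
Difference in log2 level between groups for the 7 tested members, with points for the estimate of the linear model and bars for its standard error. Filled points passed the test: Tnc, Thbs2 and Spp1 between restricted and fed old rats (middle), and Thbs2 between restricted old and young rats (right).

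Tnc encodes tenascin-C, a large multimeric glycoprotein that loosens cell adhesion and appears where tissue is injured, inflamed or strained. Its RefSeq promoter window, from 250 bases before to 50 bases after the annotated start (GRCr8, chr5:82476082-82476381, minus strand), is shown because Tnc changed with restriction, with the match to TATAAA in capitals.
Tnc: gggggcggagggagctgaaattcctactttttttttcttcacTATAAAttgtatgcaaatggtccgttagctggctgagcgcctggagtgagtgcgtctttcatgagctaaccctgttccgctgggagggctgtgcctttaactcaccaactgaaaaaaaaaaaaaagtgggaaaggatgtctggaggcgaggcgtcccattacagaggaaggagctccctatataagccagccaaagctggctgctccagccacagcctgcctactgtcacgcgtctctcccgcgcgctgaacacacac
The match starts 208 bases before the start site, and TATAAA occurs on either strand of 14.2% of 33469 rat promoters of this length.

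The level of Tnc was -0.98, -0.83, -1.28 and -1.22 in the 4 young fed rats. It was -1.53, -1.36, -1.34 and -1.31 in the old fed rats. The restricted rats had -0.69, -0.93, -0.84 and -0.81. The old fed rats were below every other animal, while restricted and young rats overlapped. The group means were -1.08 ± 0.21, -1.38 ± 0.10 and -0.82 ± 0.10 (SD, n = 4). Tnc rose with restriction by 0.57 (SE 0.096), or 1.48-fold (adjusted p = 0.011, limma). This call was kept under all 9 other settings and without each of the 12 arrays in turn, with adjusted p-values up to 0.034. Old fed rats differed from young ones by -0.31 (SE 0.096, adjusted p = 0.087), and restricted from young ones by 0.26 (SE 0.096, adjusted p = 0.11), neither of which passed. Without young fed rat 2 the latter was 0.34 (adjusted p = 0.047).

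Thbs2 encodes thrombospondin-2, an inhibitor of vessel growth that also shapes collagen fibrils. Its level was 0.91, 1.30, 1.06 and 1.33 in young fed rats. It was 1.0, 1.10, 1.14 and 1.19 in old fed rats, and 1.52, 1.49, 1.51 and 1.59 in restricted rats. The restricted rats were above all 8 others and spanned a tighter range (SD 0.041) than young fed (SD 0.20) or old fed rats (SD 0.082). The mean rose with restriction by 0.42 (SE 0.084), or 1.33-fold (adjusted p = 0.023, limma). Against young rats it rose by 0.38 (SE 0.084), or 1.30-fold (adjusted p = 0.021). Fed old and young rats differed by -0.04 (SE 0.084, adjusted p = 0.80), with overlapping animals. The first call was lost without old fed rat 1, restricted rat 2 or restricted rat 4 (adjusted p = 0.061, 0.056 and 0.067), and the second without restricted rat 3 (adjusted p = 0.053), while the differences stayed at 0.29 or more.

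Tnc and Thbs2 are made mainly by fibroblasts and smooth muscle cells, and the markers of both cell types were read beside them. With restriction 0 of 7 fibroblast markers passed (limma; 3 at an unadjusted p under 0.05), with a median difference of 0.09, and 6 of 7 had higher means. Of the 7 smooth muscle markers 0 passed and 0 had an unadjusted p under 0.05, with a median of 0.06. The 7 urothelial markers all had higher means in restricted rats, with a median of 0.15, and 0 passed (3 at an unadjusted p under 0.05). Of all features 3.64% were called with restriction, and 20.6% had an unadjusted p under 0.05. Markers outside these cell types were also called with restriction. Of 4 tendon and cartilage markers 1 rose, Col2a1 (0.61, adjusted p = 0.039), while 2 of the 4 had lower means. Of 7 endothelial markers 1 fell, Pecam1 (-0.36, adjusted p = 0.047). Of 5 platelet markers 1 fell, Pf4 (-0.85, adjusted p = 0.0098), while 3 of the 5 had higher means. Also called lower were 1 of 4 mesothelium and 1 of 8 T and NK cell markers. Against young rats Col2a1 (0.70, adjusted p = 0.014) and Chad (0.68, adjusted p = 0.039) were higher in restricted rats, while 2 of the 4 tendon and cartilage markers had lower means. In that comparison 9.18% of all features were called. Called lower were 3 of 5 striated muscle, 2 of 8 Schwann cell and nerve, 1 of 7 endothelial and 1 of 3 prostate and seminal vesicle markers. So were 1 of 7 smooth muscle and 1 of 7 fibroblast markers. Called higher were 1 of 7 urothelial and 1 of 8 T and NK cell markers. The part of these cell types in the Tnc and Thbs2 results was not tested.

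Thbs1 encodes thrombospondin-1, an activator of latent TGF-beta and a ligand of CD36 and CD47. Its probe was dim: it was well above background on 0 of 4 young fed, 3 of 4 old fed and 1 of 4 restricted arrays. The level was -7.54, -8.58, -8.36 and -8.01 in young fed rats, -6.94, -7.70, -7.75 and -7.44 in old fed rats, and -8.18, -7.97, -7.48 and -7.54 in restricted rats. The 3 groups overlapped. In a fit without the filter, old fed rats differed from young ones by 0.67 (SE 0.26, adjusted p = 0.12) and restricted from old fed rats by -0.34 (SE 0.26, adjusted p = 0.49). Neither passed.

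Postn encodes periostin, a fasciclin-domain protein that binds collagen and fibronectin and helps collagen crosslinking. Young fed rats lay close together, at -0.71, -0.71, -0.69 and -0.77. Old fed rats had -0.91, -1.26, -0.70 and -0.88 and restricted rats had -0.97, -0.88, -0.94 and -0.74. Old fed rat 2 had the lowest value. The difference between old and young fed rats was -0.22 (SE 0.097, adjusted p = 0.19) and fell in size to -0.11 without that animal. Restricted rats differed from old fed rats by 0.06 (SE 0.097, adjusted p = 0.78), and by -0.05 without old fed rat 2.

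Sparc encodes SPARC (osteonectin), a collagen-binding protein that takes part in collagen processing. Its level was 5.82, 5.87, 5.68 and 5.17 in young fed rats. It was 5.46, 4.99, 4.96 and 4.88 in old fed rats and 5.29, 5.32, 5.22 and 5.31 in restricted rats. Of the young rats, 3 were above all 8 old ones, and young fed rat 4 lay among them. Old fed rats differed from young ones by -0.56 (SE 0.15, adjusted p = 0.060, limma), which did not pass. It passed without young fed rat 4 (-0.72, adjusted p = 0.019), without old fed rat 1 (-0.69, adjusted p = 0.027) and with no filter on dim probes (adjusted p = 0.033). Restricted rats differed from old fed ones by 0.21 (SE 0.15, adjusted p = 0.46) and from young ones by -0.35 (SE 0.15, adjusted p = 0.16), the latter passing without young fed rat 4 (-0.51, adjusted p = 0.029). Beside this, all 7 tested fibroblast markers had lower means in old than in young fed rats, with a median difference of -0.26. Of these markers 1 passed the test, Col1a2, where 3.72% of all features did. The drop was not particular to fibroblast markers. All 7 smooth muscle markers had lower means as well, with a median of -0.31, and 1 passed, Myh11. So did all 5 striated muscle markers, with a median of -0.47, and 1 passed. The summed fibroblast level was 7.57 to 8.01 in young fed, 7.31 to 7.75 in old fed and 7.66 to 7.71 in restricted rats. The part of these cell types in the Sparc values was not tested.

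Fn1 encodes fibronectin, the fibril-forming glycoprotein to which cells attach through integrin alpha5 beta1 and onto which collagen is laid. The brighter probe read 2.72, 2.48, 2.45 and 2.29 in young fed, 2.79, 2.50, 2.35 and 2.15 in old fed, and 2.28, 2.32, 2.52 and 2.35 in restricted rats. The groups overlapped in all 3 comparisons. The differences were -0.04 with age, -0.08 with restriction and -0.12 between restricted and young rats (SE 0.12 each), with adjusted p-values of 0.87, 0.75 and 0.58. The second probe, a spot printed a single time, gave 0.09 with age and -0.13 with restriction, and none of its differences passed.

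Spp1 encodes osteopontin, a phosphorylated glycoprotein and cytokine made by activated macrophages and bone cells, and a ligand of CD44 and of integrins. Its RefSeq promoter window (GRCr8, chr14:5619755-5620054, minus strand) is shown because Spp1 was called with restriction, again with TATAAA in capitals, here 204 bases before the start site.
Spp1: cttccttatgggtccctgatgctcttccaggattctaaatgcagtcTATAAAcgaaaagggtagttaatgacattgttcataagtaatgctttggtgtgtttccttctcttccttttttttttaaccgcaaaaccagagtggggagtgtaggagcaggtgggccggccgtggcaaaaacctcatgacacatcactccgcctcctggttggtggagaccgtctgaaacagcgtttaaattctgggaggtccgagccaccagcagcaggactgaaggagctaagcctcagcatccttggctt
The same window held no match to the AP-1 motif TGANTCA, which 7.33% of the 33469 promoters hold on either strand, to the TEAD motif GGAATG (14.2%) or to the CArG box (1.64%), and neither did that of Tnc.

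The level of Spp1, a mean over 10 copies of the probe, was -8.61, -8.20, -9.01 and -6.97 in young fed rats. It was -6.33, -6.22, -7.45 and -7.13 in old fed rats and -8.54, -9.19, -8.82 and -8.57 in restricted rats. It was well above background on 4 of 4 old fed arrays and on 0 of 4 in each of the other groups. Young fed rat 4, at -6.97, was not counted so, although it was brighter than old fed rats 3 and 4, at -7.45 and -7.13. The floor was lowest on old fed arrays, and its part in these counts was not tested. All 4 old fed rats were above all 4 restricted ones, whereas young fed rat 4 lay among the old fed rats. The measured means were -8.20 ± 0.89 in young fed, -6.78 ± 0.60 in old fed and -8.78 ± 0.30 in restricted rats (SD, n = 4).

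Since Spp1 had only an upper bound in restricted rats, its mean in old fed rats was at least 1.77-fold higher on the processed signal scale. This was taken against the lowest signal that counted as well above background on each restricted array. The measured difference between restricted and old fed rats was -2.0 (SE 0.42, adjusted p = 0.025, limma). That test was made only because Spp1 was high in the old fed group, and the measured size rests on restricted arrays where Spp1 was not well above background. On this scale the bound is therefore the value to read. It is no minimum for other background corrections, as the difference under normexp was -0.30. Old fed rats 3 and 4, at -7.45 and -7.13, lay near the restricted floors of -7.73 to -7.46. On the same scale the bound against young rats was at least 1.18-fold. The measured difference of 1.42 (SE 0.42, adjusted p = 0.075), open to the same limits, did not pass, and it was 0.20 at the least under other settings. It passed without young fed rat 4 (1.83, adjusted p = 0.028) and with no filter on dim probes (adjusted p = 0.044).

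The call with restriction was lost under normexp background correction, where the difference was -0.30 (adjusted p = 0.16). It was also lost without old fed rat 1 or 2 or restricted rat 2, 3 or 4, with adjusted p-values of 0.059 to 0.080, and without the outlying old fed rat 2 the difference was -1.81. Dim probes carry a further difference between the arrays: negative control probes averaged -10.5 to -9.97 on old fed, -9.81 to -9.54 on restricted and -9.18 to -8.94 on young fed arrays. The part of the background in the Spp1 values was not tested.

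Markers of immune cells moved beside Spp1. All 9 macrophage markers had higher means in old than in young fed rats, with a median difference of 0.54, and 1 of them (Gpnmb) passed. In restricted rats 8 of the 9 had lower means than in old fed rats, with a median of -0.26, and 0 of 9 passed (limma), with 3 lower at an unadjusted p under 0.05. The summed level of these markers was 4.89 to 5.14 in young fed, 5.35 to 6.24 in old fed and 4.97 to 5.37 in restricted rats. It follows the brightest probes, Lyz2 first (mean 4.55 in old fed rats). The dimmest, Csf1r, Adgre1 and Mrc1 (-1.53, -1.02 and -2.37 there), hardly enter it. For the 8 T and NK cell markers the medians were 0.86 with age and -0.76 with restriction. With age 3 were called, Cd3d, Cd2 and Ptprc, and with restriction 1, Cd3d. Ptprc encodes CD45, which is not limited to T and NK cells. The summed level of the 8 was 0.68 to 0.95, 1.40 to 2.65 and 0.83 to 1.21 in young fed, old fed and restricted rats. Of all features 3.72% were called with age and 3.64% with restriction, where 20.6% had an unadjusted p under 0.05. All 17 of these markers were well above background on all 12 arrays, and their part in the Spp1 result was not tested.

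Ccn2 encodes connective tissue growth factor, a secreted protein that TGF-beta and the YAP and TAZ coactivators, which act through TEAD factors, are known to induce. Its RefSeq promoter window (GRCr8, chr1:22624565-22624864, minus strand) is shown because Ccn2 varied most among the rats and because of its matches, in capitals: GGAATG and TATAAA.
Ccn2: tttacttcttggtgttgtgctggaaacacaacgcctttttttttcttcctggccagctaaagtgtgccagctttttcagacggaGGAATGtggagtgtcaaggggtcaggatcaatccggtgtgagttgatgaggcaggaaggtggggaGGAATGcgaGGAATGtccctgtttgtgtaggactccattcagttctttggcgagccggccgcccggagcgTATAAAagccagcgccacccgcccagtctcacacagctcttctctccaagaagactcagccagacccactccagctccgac
GGAATG starts 166, 101 and 92 bases before the start site and TATAAA 31 bases before it. At least 3 matches to GGAATG on either strand were found in 32 of the 33469 promoters (0.0956%). The cut of 3 equals the count in the Ccn2 window, which was shown for these matches, so this share is no measure of chance. Of the other members with a window, Thbs1, Sparc and Thbs4 held 1 match each to GGAATG or its complement, CATTCC, at 47, 33 and 178 bases before the start. Postn held TATAAA at 44 bases before it. These matches describe the letters alone.

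The level of Ccn2 was 1.83, -0.91, -1.62 and -1.38 in young fed rats. It was 0.63, -0.80, 0.23 and -0.08 in old fed rats and -1.37, -1.54, -0.71 and 0.04 in restricted rats. The 12 rats spanned 3.44 on the log2 scale, more than the largest difference between group means, and the highest and the lowest animal were both young. The 10 copies of the probe on an array differed by an SD of 0.023 to 0.061, far less than the animals did. The differences were 0.52 with age, -0.89 with restriction and -0.37 between restricted and young rats (SE 0.66 each), with adjusted p-values of 0.66, 0.47 and 0.75. Without young fed rat 1 the difference with age was 1.30 (adjusted p = 0.11) and that between restricted and young rats was 0.41, so 1 animal set its size and sign.

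**Figure D2:**
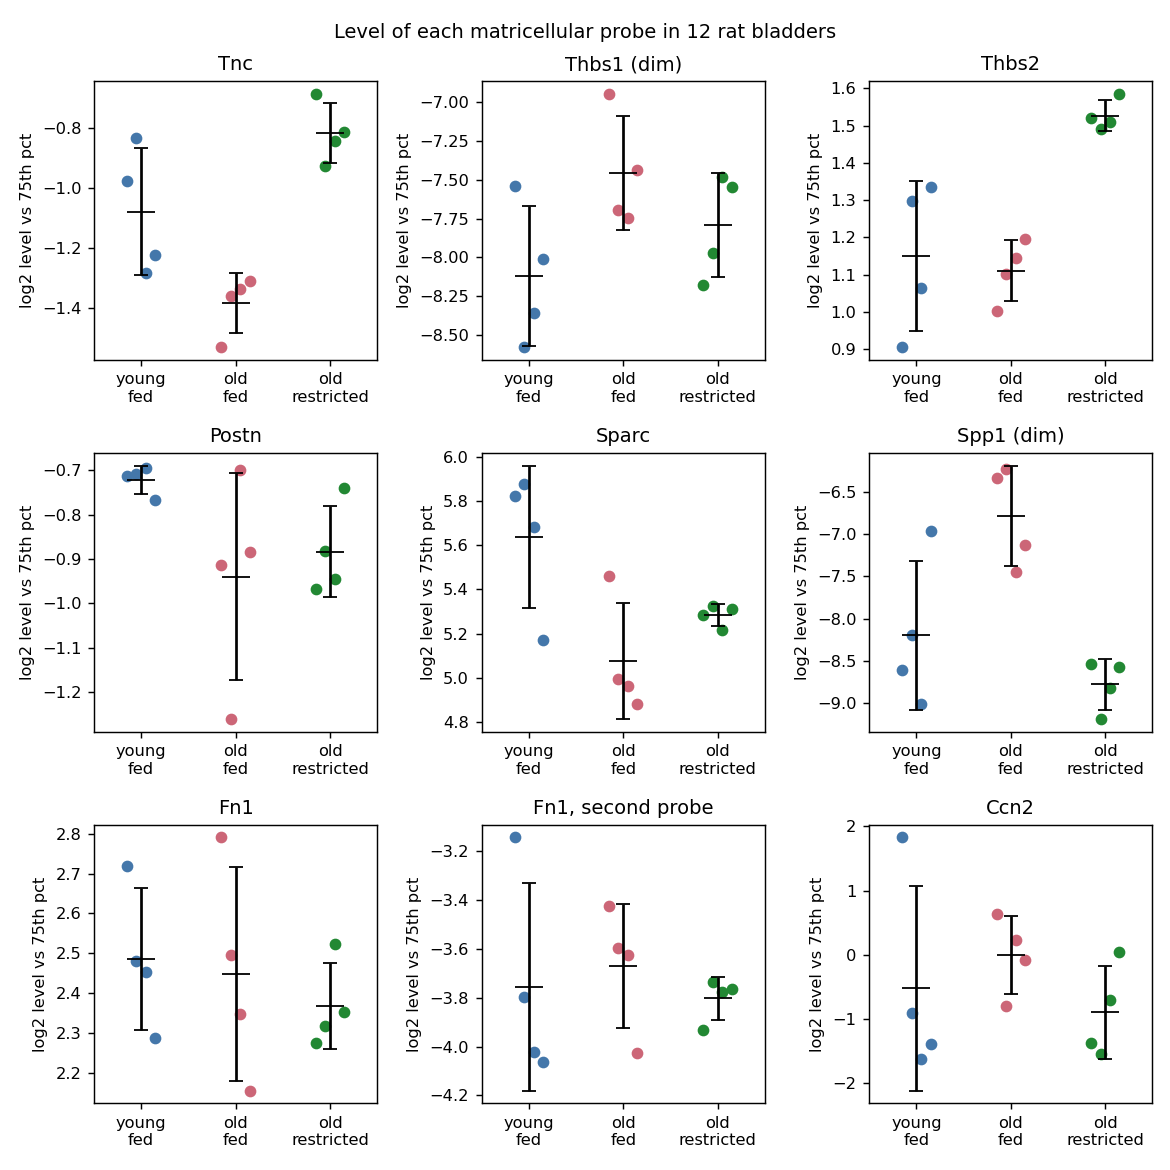
Level of all 9 member probes in each of the 12 rats, with 1 point per rat, the group mean as a horizontal line and the SD as a bar (n = 4 per group), on an axis of its own in log2 signal relative to the 75th percentile of the array; panels marked dim hold probes not well above background on every array. Old fed rats lie lowest for Tnc, restricted rats highest for Thbs2, and 1 young rat lies far above the rest for Ccn2.

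For the 2 members tested whose level spanned over 1 log2 unit, the most similar features among 12035 others with a symbol were sought. The measure was the root mean square difference over the 12 arrays after each was centred on its own mean. For Ccn2, where a flat gene would score 0.99, the closest were Amotl2 (0.47), an angiomotin family protein at tight junctions, Rnd3 (0.47), and Tnfrsf12a (0.50), the receptor for TWEAK. Amotl2 was well above background on 10 of 12 arrays. All 3 were highest in young fed rat 1, as Ccn2 was, with levels of -4.60, -1.96 and -0.04 there against -6.71 to -6.42, -3.93 to -3.77 and -1.72 to -1.40 in the other young rats.

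For Spp1 a flat gene would score 1.01. Spp1 itself was well above background on 4 of the 12 arrays, so most of the matched profile was signal not well above background. The closest were Ptprcap (0.50), a leukocyte protein that associates with CD45, Ccl4 (0.52), a chemokine, and Atp2a1 (0.55), a sarcoplasmic reticulum calcium pump. Ccl4 averaged -4.59 in young fed, -3.52 in old fed and -4.91 in restricted rats, Ptprcap -3.79, -2.62 and -3.76, and Atp2a1 -4.71, -3.95 and -5.13. All 3 were highest in old fed rat 2, at -2.50, -1.88 and -3.32, the animal that stood apart from the others. Likeness over 12 arrays is a description, and all these features share the same arrays. For Ccn2 and Spp1 alike, the features were picked on these arrays, so the shared peaks follow from the choice and are no separate result.

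**Figure D3:**
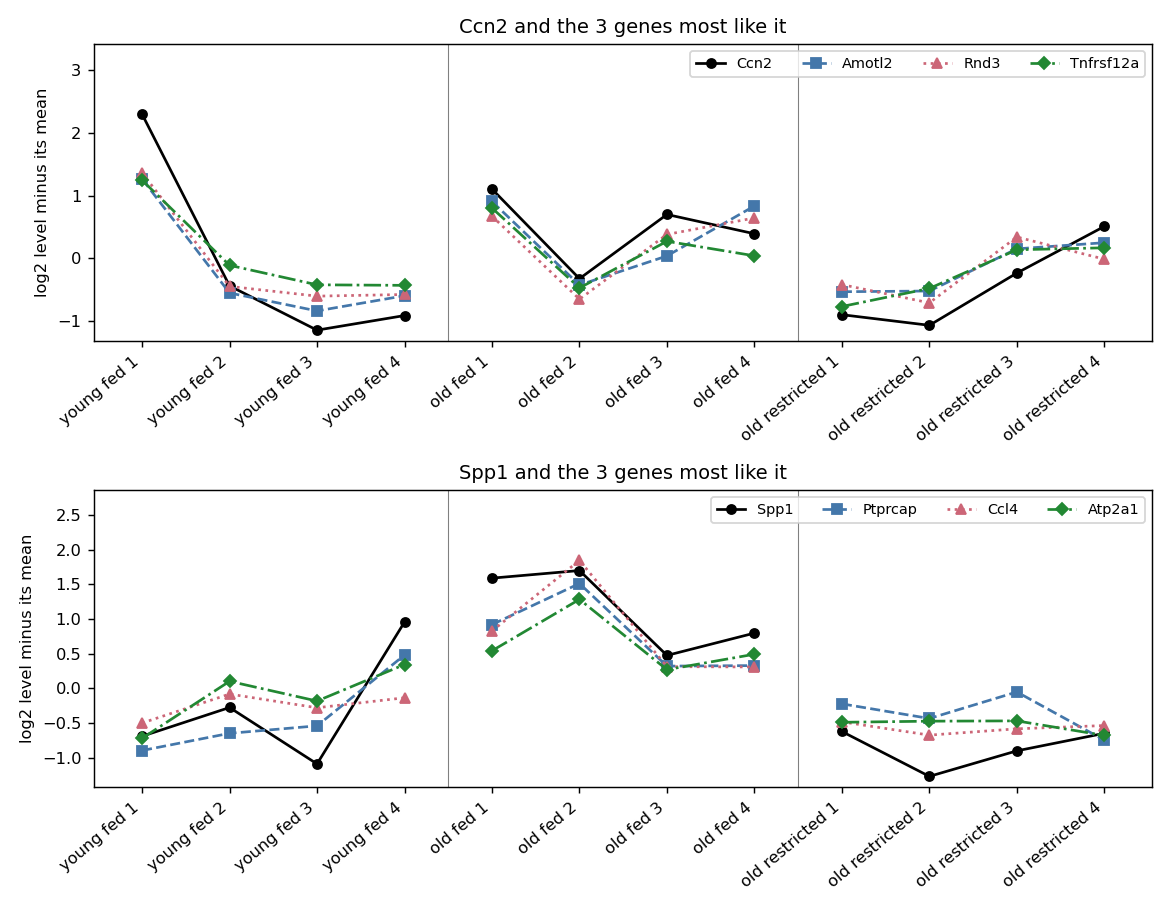
Level of Ccn2 (top) and Spp1 (bottom) in each rat with the 3 features most like it, each minus its own mean over the 12 arrays, on a log2 scale; lines join rats only to guide the eye. Ccn2 and its 3 features peak in young fed rat 1, and Ccl4, Ptprcap and Atp2a1 peak with Spp1 in old fed rat 2. The features were picked for likeness over these same rats.

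Among 23 other matricellular genes tested of 32 listed, 2 changed with age, 2 with restriction and 3 between restricted and young rats, with medians of -0.09, -0.0041 and -0.14. In the same order 3.72%, 3.64% and 9.18% of all features were called. Whether this list or those below differ from these shares was not tested. Angptl4, a secreted inhibitor of lipoprotein lipase, had the largest differences of the list with age and with restriction. It averaged 0.78 ± 0.36 in young fed, 2.19 ± 0.26 in old fed and 0.23 ± 0.63 in restricted rats (SD, n = 4). It rose 2.67-fold with age (adjusted p = 0.026) and was 3.91-fold lower in restricted than in fed old rats (difference -1.97, adjusted p = 0.0045). The call with restriction was kept without each of the 12 arrays, and that with age was lost without young fed rat 1 or 2 or old fed rat 2 (adjusted p = 0.054 to 0.068). Ecm1, a secreted matrix protein, fell with age by 0.26 (adjusted p = 0.049), a call kept in 1 of the 12 fits with an array left out (adjusted p = 0.049 to 0.11).

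Tnr, the tenascin of the nervous system, was dim. It was well above background on 4 old fed, 2 young fed and 1 restricted array, so it entered the test only through the old fed group. It was among the genes called lower in restricted rats in both comparisons, but its calls add nothing to those counts and no size is given. Under normexp neither call was made (adjusted p = 0.068 and 0.067). Ccn3, a growth-restraining CCN protein, was lower in restricted than in young rats (-0.62, adjusted p = 0.012), and so was Smoc2, a calcium-binding relative of SPARC (-0.68, adjusted p = 0.020).

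Of 27 listed receptors 19 were tested. With restriction 3 changed: Sdc4, the syndecan that binds fibronectin and tenascin-C, rose by 0.22 (adjusted p = 0.020), while Cd36, the receptor of thrombospondins, fell by 0.44 (adjusted p = 0.036) and Itga4, an integrin chain for fibronectin and osteopontin that leukocytes carry, fell by 0.54 (adjusted p = 0.048). With age 1 changed, Itgb2, the beta chain of leukocyte integrins, which rose 2.01-fold (adjusted p = 0.046). Between restricted and young rats 4 changed, with Sdc4 (0.16) and the epithelial integrin chain Itgb6 (0.57) higher and Itga5 (-0.61) and the collagen receptor Ddr2 (-0.28) lower. The medians over the list were 0.05, -0.02 and -0.05 for age, restriction and restricted against young rats. In these comparisons 3.72%, 3.64% and 9.18% of all features were called.

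Of 27 listed inducers 20 were tested, with medians of -0.14, -0.05 and -0.26 in the same order. Called were 2, 1 and 3 of the 20, beside 3.72%, 3.64% and 9.18% of all features. The growth factors Pdgfa (-0.32) and Igf1 (-0.47) fell with age, with adjusted p-values of 0.040 and 0.045. Both were also lower in restricted than in young rats (-0.32 and -0.65), as was Prrx1, a transcription factor of mesenchymal cells (-0.58). Smad2, a mediator of TGF-beta signals, rose with restriction by 0.25 (adjusted p = 0.026), the 1 gene of the list to do so.

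Of 23 listed proteases, their inhibitors and crosslinking enzymes 20 were tested, with medians of 0.07, -0.23 and -0.08. The matrix metalloproteinases Mmp13 and Mmp3 rose with age, by 3.30 (SE 0.59, adjusted p = 0.021) and 1.76 (SE 0.21, adjusted p = 0.0049). Bmp1, the procollagen C-proteinase, fell by 0.35 (adjusted p = 0.035). With restriction Mmp14, a membrane-bound collagenase, fell by 0.35 (adjusted p = 0.025), and Mmp13 differed by -1.96 (SE 0.59, adjusted p = 0.092), which did not pass. Between restricted and young rats Mmp3 was higher (1.36) and Mmp14 (-0.28), Bmp1 (-0.33) and Timp2 (-0.20) were lower. The median of all features was -0.05, 0.02 and -0.01 for the same comparisons. Of the list 3, 1 and 4 genes were called, beside 3.72%, 3.64% and 9.18% of all features.

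Many of these calls lay near the threshold. Of 29 calls of listed genes over the 3 comparisons, 7 were kept without each of the 12 arrays in turn: Mmp3 with age and between restricted and young rats, Angptl4 with restriction, and Ccn3, Itgb6, Igf1 and Prrx1 between restricted and young rats. The other 22 were lost without at least 1 array, with the direction kept in all of them. Mmp13 was lost without young fed rat 2 alone (adjusted p = 0.057), and Sdc4 with restriction without restricted rat 2 or 4 (adjusted p = 0.065 and 0.053). Itga4 with restriction, like Ecm1 with age, was called in 1 of the 12 such fits, and Igf1 with age in 2. Under other settings 47 of 230 fits of these calls lost them: Timp2 was kept in 3 of 8 and Mmp14 in 4 of 8 between restricted and young rats. Mmp3 kept its calls in all 8, though under normexp its differences were 1.09 with age and 0.83 between restricted and young rats.

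**Figure D4:**
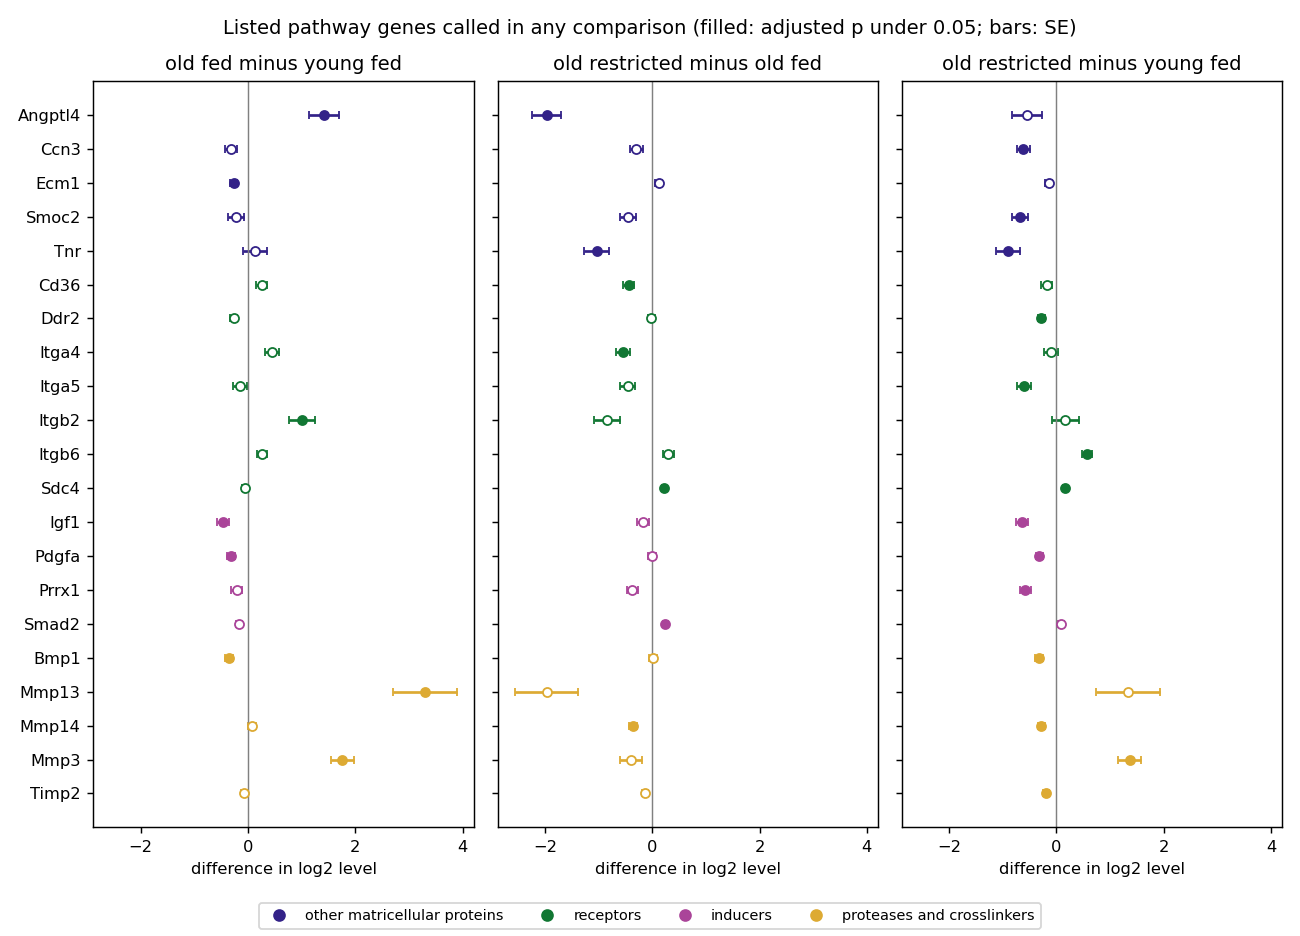
Difference in log2 level for the 21 genes of the 4 lists that passed in any comparison, with bars for the standard error; filled points passed in that comparison. Mmp13, Mmp3 and Angptl4 show the largest rises with age (left), and Angptl4 lies far to the left with restriction (middle).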

How the data were processed

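Per the file headers, the authors' scanner files hold spot intensities of one-colour arrays, background-subtracted and detrended within each array by Agilent's software, with coordinates of build rn4; the version of Agilent Feature Extraction was 10.7, per the submitters' processing notes. The deposited files also hold other columns with flags for outliers and for spots well above background. The deposited table of the whole series equals these intensities and was not used. No spot was saturated.

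Non-outlier spots of a probe were averaged as log2 processed signal, minus the 75th percentile over the 58717 non-control spots of the array. Probes were named through their RefSeq accession in a GRCr8 table, used only for names and promoter sequences. A probe was kept if every array of some group had it well above background, and each gene was represented by its brightest kept probe, giving 20425 features. Tests used limma 3.58 in R 4.3 (lmFit and eBayes with trend, 9 residual degrees of freedom, two-sided) on all 12 arrays, with Benjamini-Hochberg adjustment at 0.05. Summed levels are the log2 of a list's summed signals, so they follow its brightest probes. A bound is the brighter group's mean against the dimmer group's mean of, per array, the higher of the probe's own level and the lowest level among those called well above it. The limma fit was first tested on simulated data, for old against young fed arrays only.

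Each array is labelled as a separate animal, and 4 arrays per group limit the precision. Replicate numbers, taken from the source names, did not pair the rats (the titles carry other numbers, whose pairing was not tested): over 12 same-numbered pairs, deviations from group means correlated at -0.19 to 0.095. Alternatives were normexp (offset 50, on median signals, as mean signals were not used here), quantile and median scaling, other filters, every probe as a feature, other error models, a replicate block and each array left out. Named genes were all members, every listed gene called in any comparison, up to 3 per list with the smallest adjusted p in each comparison, and the 3 features most like each member spanning over 1 log2 unit. Members and lists were chosen with earlier results of these data known.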

Additional observations from a re-analysis of the deposited data

How the results depend on the processing

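Of 189 fits of the members under other settings, 184 kept the direction and the side of the threshold, and of 252 fits with 1 array left out, 231 did. The members called with age (0) became 2 without the filter on dim probes and 0 to 2 with an array left out; those called with restriction (3) became 1 to 3, and those called between restricted and young rats (1) became 0 to 2. Features called with age (760) were 3568 without the filter, 440 without the brightness trend, 498 with the replicate block, 94 with only the 2 groups compared and 121 to 927 with an array left out. With restriction (744) they were 478 with only the 2 groups and 268 to 848 with an array left out. Between restricted and young rats (1874) they were 3259 without the filter and 737 to 2089 with an array left out. The causes were not tested.

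With the replicate block, 0, 3 and 1 members were called in the 3 comparisons, and the block changed no member's call. Differences near 0 changed sign. Fn1 with age was 0.0027 with quantile scaling and 0.087 for its other probe. With an array left out, the difference with age ranged from -0.12 to 0.021 for Thbs2 (above 0 without young fed rat 2 or 4) and from -0.15 to 0.060 for Fn1 (above 0 without young fed rat 1 or old fed rat 4). With restriction it ranged from -0.051 to 0.14 for Postn (below 0 without old fed rat 2) and from -0.18 to 0.034 for Fn1 (above 0 without old fed rat 1). For Ccn2 between restricted and young rats it ranged from -0.74 to 0.41, above 0 without young fed rat 1. No slide block could be fitted with restricted rats, whose slide held no other group. Signal over background limits Spp1, Thbs1 and Tnr.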
